A study of Mus musculus with 8 samples.

Results

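Transsulfuration and glutathione turnover was followed here through 10 genes: Cth, Cbs, Gclc, Gclm, Gss, Gsr, Chac1, Chac2, Ggct and Oplah. They were selected by gene symbol from the 39179 genes of the count table, each symbol has a single row there, and all 10 were among the 13626 genes with enough counts to be tested. The members were proposed after the difference between the arms was known for these libraries, so their fold changes are given as a description with an error. Where a member is said to be called, this only records that the fit over all genes put it under the threshold used for every gene, and it is no independent test of that member. PolyA RNA had been sequenced from epithelial cancer cells of the mouse pancreas (strain FVB/B6 mix, with the alleles p48Cre, ROSA_rtTAL+ and p53L+ in all libraries), which carry a green fluorescent protein. In this design p48Cre acts in the pancreatic lineage and ROSA_rtTAL+ supplies a tetracycline-controlled activator, and the labels do not say whether an inducer was present. All cells had been grown for 72 h with red fluorescent pancreatic stellate cells in 0.5% dialyzed serum and were then separated by colour in a sorter. A neutralizing antibody against SHH, the secreted ligand sonic hedgehog, was added at 20 µg/mL to the cultures of 4 libraries. The other 4 libraries came from cultures with no antibody. How far SHH was blocked was not tested. Shh itself had 7, 13, 16 and 8 counts in antibody replicates 1 to 4 and 5, 0, 7 and 0 in those without. The labels name no control antibody and do not say how many cell lines were used. They call the 4 samples of an arm biological replicates but do not say how these were separated, so the errors measure the spread between these libraries.

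Glutathione is a tripeptide of glutamate, cysteine and glycine and the main thiol buffer of the cell. Cysteine for it is imported as cystine or made from methionine by transsulfuration, in which cystathionine beta-synthase (Cbs) joins homocysteine to serine and cystathionine gamma-lyase (Cth) releases cysteine. Glutamate-cysteine ligase, a catalytic chain (Gclc) with a modifier chain (Gclm), and then glutathione synthetase (Gss) build the tripeptide, and glutathione reductase (Gsr) returns its oxidized form to the reduced one with NADPH. Inside the cell Chac1 and Chac2 cut glutathione to oxoproline and cysteinylglycine, Ggct makes oxoproline from gamma-glutamyl peptides, and Oplah hydrolyses oxoproline to glutamate. Cth and Chac1 are known targets of the amino acid response factor ATF4, and Gclc, Gclm and Gsr of the oxidative stress factor NRF2.

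The libraries assigned 10009711 to 15733280 counts to genes, with every antibody library deeper than every library without antibody (exact two-sided permutation p = 0.0286, n = 4 each, or 0.114 adjusted over 8 library measures; 0.0286 is the smallest p this design allows). Of the epithelial and ductal markers 10 of 10 had enough counts to test, with Krt19 at 1459 ± 70.4 CPM (counts scaled to a common library total, SD, n = 4) with antibody and 1289 ± 111 without. Of these 10, Tff1 (95.1 ± 5.10 against 51.7 ± 1.74 CPM, edgeR adjusted p = 1.51e-09) and Epcam (25.0 ± 1.63 against 20.6 ± 1.49 CPM, adjusted p = 0.022) were higher with antibody. The other 8 were not called, with log2 fold changes from -0.19 (Cldn4) to 0.18 (Krt19). The 18 stellate and fibroblast markers summed to 1247 to 1329 CPM with antibody and 1172 to 1315 without. Most of that sum was Vim, a filament gene that dedifferentiated cancer cells also express, while Dcn and Lum were at 0 counts in all 8 libraries. Of the 18, 10 had enough counts to test. Among these, Col5a1 stood at 114.8 ± 3.43 CPM with antibody and 109.6 ± 7.60 without, and Fbln1 at 22.42 ± 0.36 and 22.36 ± 3.08 CPM. Col1a2 stood at 15.1 ± 5.3 and 10.7 ± 5.7 CPM and Col1a1 at 15.1 ± 3.86 and 11.6 ± 2.52 CPM. Pdgfra was lower with antibody (log2 fold change -0.84, edgeR adjusted p = 0.00271). Of the leukocyte markers, 3 of 8 were at 0 throughout, and Cd68 stood at 5.05 ± 0.64 CPM with antibody and 4.59 ± 1.00 without. Of the acinar markers 4 of 6 were at 0, and Cela1 stood at 2.99 ± 0.35 and 3.88 ± 0.86 CPM. Endothelial markers summed to 12.9 to 14.5 CPM with antibody and 11.7 to 13.3 without, most of it Cdh5 (12.55 ± 0.93 and 11.45 ± 0.91 CPM). Hepatocyte markers, from the tissue known for high transsulfuration, summed to 2.01 to 2.60 CPM with antibody and 0.80 to 1.95 without. The part of other cells in the values below was not tested. Without antibody, replicate 1 stood apart from the other 3 libraries of its arm, with a chi-square per degree of freedom between 9.06 and 11.2 over genes, and held 6.48% of its counts in mitochondrial genes. Replicate 4 differed from replicates 2 and 3 by 4.54 and 3.88, where those differed from each other by 1.77. Pairs of antibody libraries differed by 1.72 to 3.70, so replicate 4 lay only a little beyond them. This measure also grows with depth, and replicate 4 (14602784 counts) was deeper than replicates 2 (10009711) and 3 (10670776).

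Levels per gene length ordered the 10 genes over a wide range (RPKM, a count scaled by gene length and library total, as the authors deposited it). Without antibody Gsr was the most abundant at 105.8 ± 7.76 RPKM (SD, n = 4), followed by Gclc at 72.9 ± 2.49 and Cth at 57.1 ± 7.88. Chac1 (30.8 ± 3.18 RPKM) and Gclm (28.6 ± 2.69 RPKM) came next, and their libraries overlapped. Chac2 (21.5 ± 2.42 RPKM) and Gss (17.9 ± 1.20 RPKM) followed, then Oplah (6.93 ± 0.30 RPKM), Cbs (2.82 ± 0.51 RPKM) and Ggct (2.06 ± 0.11 RPKM). Apart from Chac1 and Gclm, no neighbours in this order had overlapping libraries without antibody. Transcripts of the reducing enzyme and of the catalytic chain of the first synthesis step were thus the highest of the set, and those of the entry enzyme of transsulfuration and of Ggct the lowest. With antibody Gsr and Gclc were still ranked first and second, while Cth went from rank 3 to rank 4 and Chac1 from rank 4 to rank 7.

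**Figure D1:**
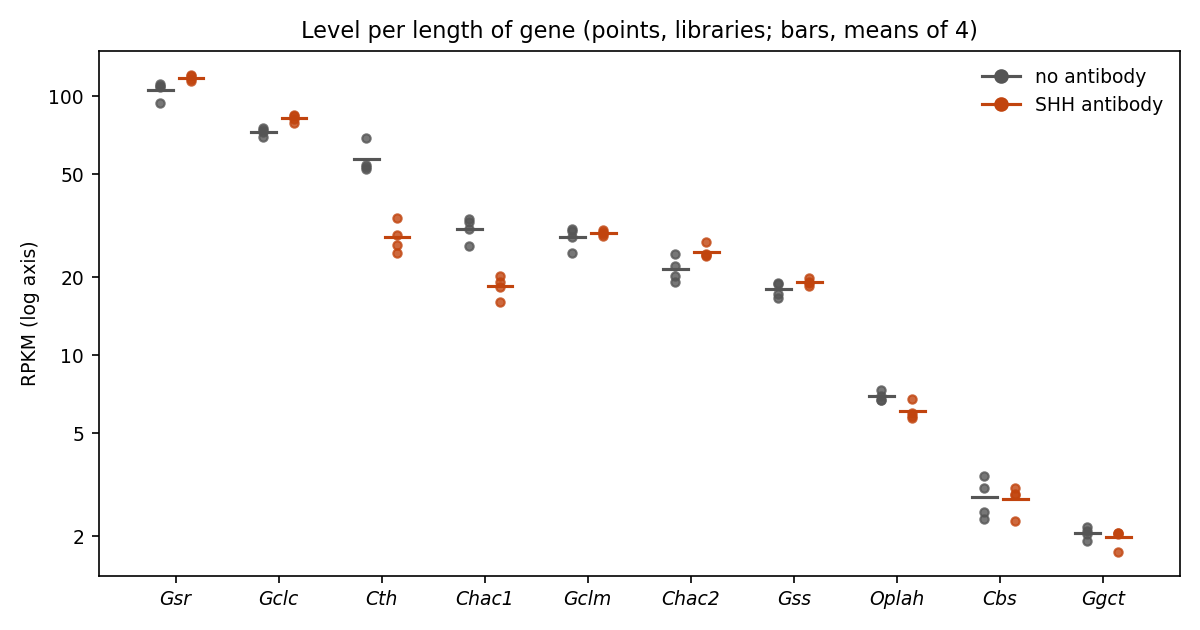
RPKM (log axis) of the 10 genes, ordered by their mean without antibody, with a point per library and a bar for the mean of 4 in each arm. Gsr lies highest at 105.8 RPKM and Ggct lowest at 2.06 RPKM without antibody, and the antibody libraries of Cth and Chac1 lie below all libraries without antibody.

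With the antibody Cth and Chac1 were called lower, Gclc was called higher by a small amount, and the other 7 genes were not called. Cth stood at 64.6 ± 8.66 CPM with antibody and 129.7 ± 17.6 without (SD, n = 4 each), and Chac1 at 30.2 ± 2.87 and 50.6 ± 4.94 CPM. In the fit over all 13626 genes (edgeR quasi-likelihood test, adjusted p under 0.05) 8.4% of genes were called, 4.53% as higher and 3.87% as lower. The arms did not overlap in CPM for 4 members (Cth, Chac1, Gclc and Gsr), being lower with antibody for Cth and Chac1 and higher for Gclc and Gsr. They did not overlap for 14.3% of all genes, 7.71% higher and 6.56% lower. The members' median log2 fold change was 0.02, with 5 values above 0 and 5 below, and that of all genes was -0.0044. Since the members were picked with this contrast in view, nothing is read from these counts. Without both replicates 1 and 4 of the arm without antibody, Chac2 was called as well as Gclc, and Oplah as well as Cth and Chac1, so that 2 were called higher and 3 lower. In that fit 1121 of all genes were called higher and 1142 lower, against 617 and 527. The libraries left in that arm were its most alike pair, so a smaller spread within it was set by the choice. In bulk RNA a lower level in every cell and a smaller share of cells that express the gene cannot be told apart.

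**Figure D2:**
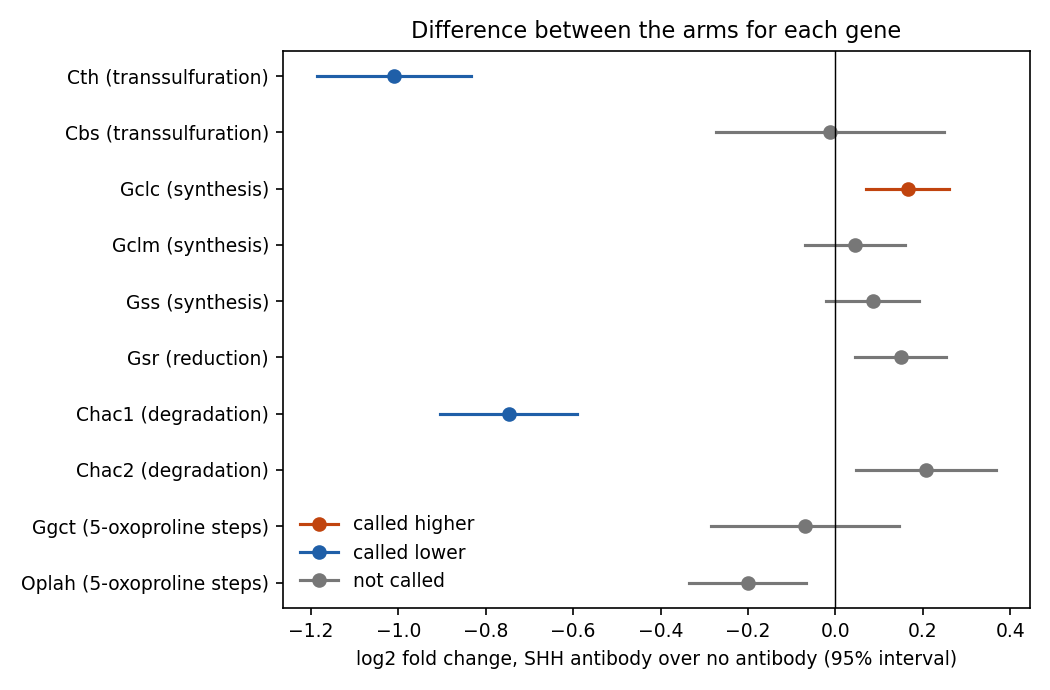
Log2 fold change of each gene, antibody over no antibody, with its 95% interval from the edgeR fit, genes in the order of their roles. The intervals of Cth (-1.19 to -0.83) and Chac1 (-0.90 to -0.59) lie far below 0, and those of the other 8 genes lie between -0.33 (Oplah) and 0.37 (Chac2).

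Of the transsulfuration enzymes, Cth was lower with antibody and Cbs was not called. Cth (ENSMUSG00000028179, chromosome 3, 157894248 to 157925077, minus strand, GRCm38), which releases cysteine from cystathionine, had 76.1, 56.3, 60.0 and 66.2 CPM in antibody replicates 1 to 4. In replicates 1 to 4 without antibody it had 124.2, 118.5, 120.5 and 155.8 CPM. The highest antibody library lay far below the lowest of the other arm, and replicate 4 was the highest of its arm. The log2 fold change was -1.01 ± 0.09 SE (95% interval -1.19 to -0.83), which is 2.01-fold lower, and 15 of the 13626 genes had a lower value. Without replicate 4 of the arm without antibody it was -0.91, and without both replicates 1 and 4 it was -0.89.

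Cbs (chromosome 17, 31612623 to 31637199, minus strand), the entry enzyme of the route, had 10.2, 9.59, 9.68 and 7.65 CPM with antibody. Without antibody it had 7.87, 10.3, 11.4 and 8.28 CPM. The arms overlapped over nearly their whole range, with libraries of both arms among the lowest. Its log2 fold change was -0.01 ± 0.13 SE, and the 95% interval allows a fold from 0.83 to 1.19. Without both replicates 1 and 4 of the arm without antibody it was -0.23, still not called. The level rests on 101 to 158 counts per library. The ratio of Cth to Cbs in RPKM was 11.1, 8.67, 9.16 and 12.8 in antibody replicates 1 to 4 and 23.3, 17.0, 15.6 and 27.8 in those without. It did not overlap between the arms, which restates the difference in Cth, since the value of Cbs was near 0.

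**Figure D3:**
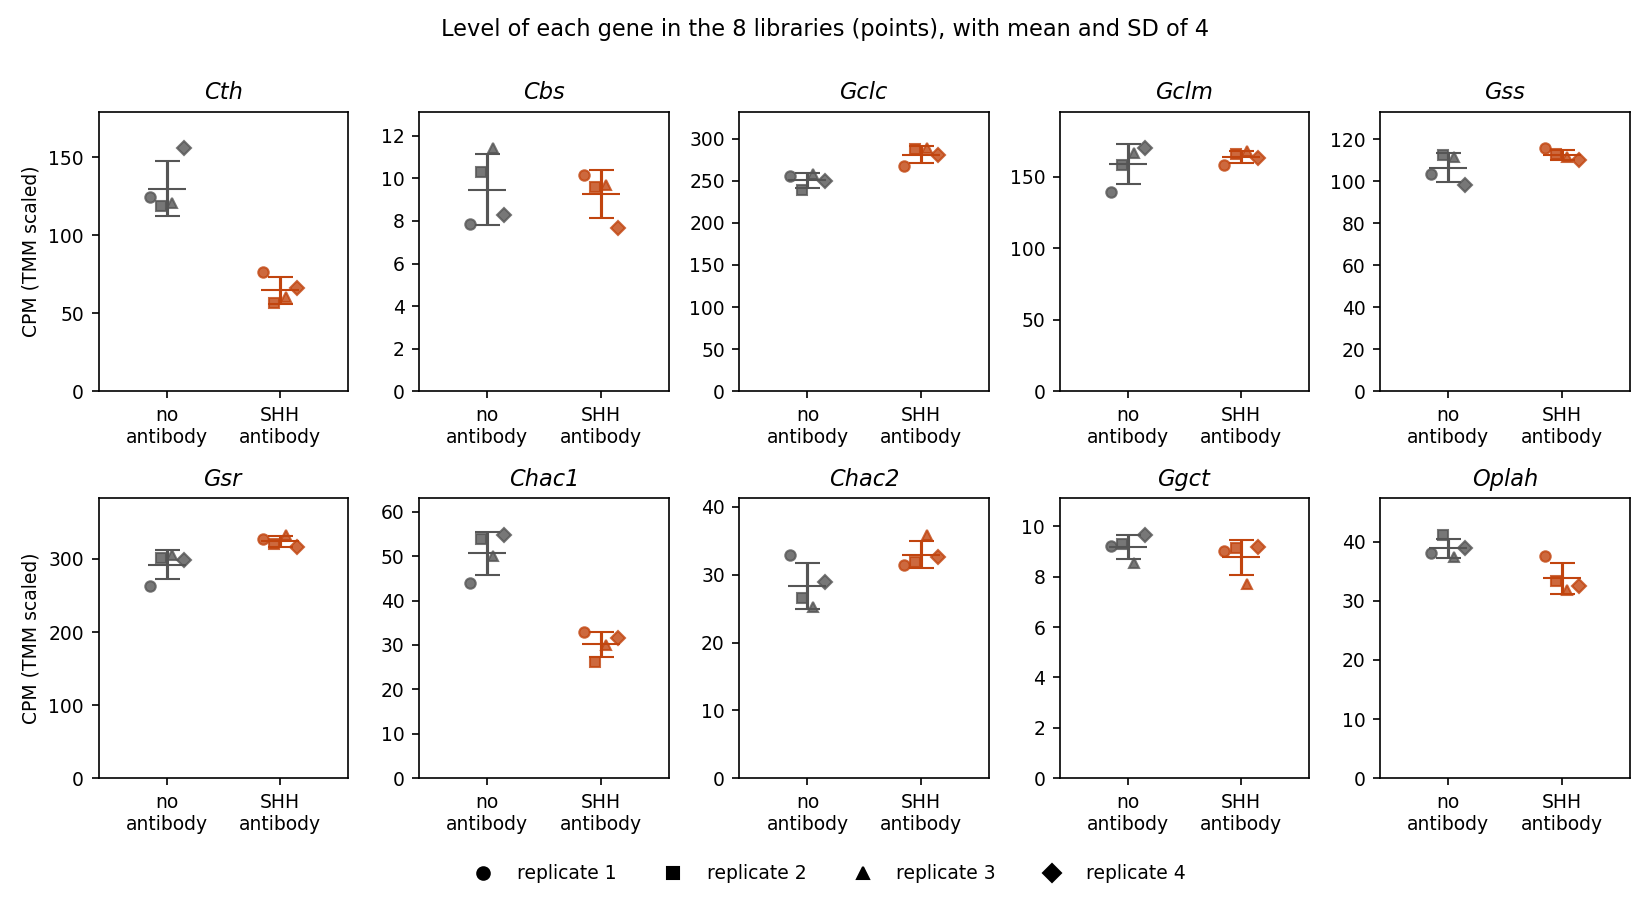
CPM of each gene in the 8 libraries, a marker shape per replicate number, with the mean and SD of 4 libraries in each arm and each axis starting at 0. Only Cth, Chac1, Gclc and Gsr have arms that do not overlap, and the lowest library of Gsr (263.2 CPM) is replicate 1 without antibody.

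Of the glutathione-cutting enzymes, Chac1 was lower with antibody and Chac2 had a positive value that was not called. Upstream sequence was at hand for both, from RefSeq (GRCm38.p6), as for 6 of the 10 members in all (also Cbs, Gclm, Gss and Ggct). They are shown because these genes of like function had opposite signs. Capitals mark a match to the letters TGATGNAA, the common part of elements that ATF4 binds with C/EBP factors, searched on both strands. Each stretch ends before the first annotated base of the gene, so it holds no annotated exon of that gene. Transcription of other genes through it was not examined. Asb3, which overlaps Chac2 on the other strand without shared exons, stood at 22.61 CPM with antibody and 23.05 without.

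Chac1, chr2:119350992-119351228, plus strand: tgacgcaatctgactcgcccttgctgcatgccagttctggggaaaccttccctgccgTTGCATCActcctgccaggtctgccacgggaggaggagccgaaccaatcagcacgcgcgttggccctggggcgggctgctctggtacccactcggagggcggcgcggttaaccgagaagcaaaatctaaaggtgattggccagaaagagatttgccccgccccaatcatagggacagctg

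Chac2, chr11:30986366-30986615, minus strand: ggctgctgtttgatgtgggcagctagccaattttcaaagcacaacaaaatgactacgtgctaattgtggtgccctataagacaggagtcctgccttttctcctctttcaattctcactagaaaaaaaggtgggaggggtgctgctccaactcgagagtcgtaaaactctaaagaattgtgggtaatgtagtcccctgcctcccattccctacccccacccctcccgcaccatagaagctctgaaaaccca

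The Chac1 stretch holds TTGCATCA, which reads TGATGCAA on the other strand, at 193 to 186 bases before the RefSeq start site, and the Chac2 stretch holds no match. In all, 1 of the 6 members held this motif, and 3.45% of the 32817 upstream windows of 250 bases in the table did. The stretches searched for Chac1, Cbs and Ggct were shorter, at 237, 217 and 167 bases. The antioxidant response element, searched as TGACNNNGC, was matched in Gclm and Ggct and in 10.2% of all windows. The cyclic AMP element TGACGTCA was matched in none of the 6 and in 1.55% of all windows. A match says only that these letters are present.

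Chac1 (ENSMUSG00000027313, chromosome 2, 119351229 to 119354381, plus strand, GRCm38) had 32.9, 26.2, 30.0 and 31.5 CPM in antibody replicates 1 to 4. Its libraries without antibody had 43.9, 53.8, 50.02 and 54.8 CPM. All antibody libraries lay below all others, and replicate 1 was the lowest of the libraries without antibody. Its log2 fold change was -0.75 ± 0.08 SE (95% interval -0.90 to -0.59), 1.68-fold lower, on 413 to 800 counts per library. It was -0.79 without both replicates 1 and 4 of the arm without antibody.

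Chac2 (chromosome 11, 30976707 to 30986350, minus strand) had 31.4, 31.9, 35.9 and 32.6 CPM with antibody. In the other arm it had 32.9, 26.5, 25.2 and 29.0 CPM. Only replicate 1 without antibody reached into the range of the antibody libraries. The log2 fold change was 0.21 ± 0.08 SE (95% interval 0.05 to 0.37). It was called as higher without that replicate, at 0.28, without both replicates 1 and 4, at 0.35, and with no filter on low counts, at 0.21. Per length Chac1 exceeded Chac2 in all 4 libraries without antibody (RPKM ratio 1.07, 1.63, 1.59 and 1.52) and lay below it in all 4 with antibody (0.84, 0.66, 0.67 and 0.78). Per length, the more abundant transcript of the pair was therefore Chac1 without antibody and Chac2 with it. This rests on the single length per gene implied by the deposited RPKM, 1637 bases for Chac1 and 1315 for Chac2. In CPM, antibody replicate 1 had Chac1 (32.87) above Chac2 (31.45).

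Among the enzymes that build glutathione, Gclc was slightly higher with antibody and Gclm and Gss were not called. Gclc, the catalytic chain (ENSMUSG00000032350, chromosome 9, 77754535 to 77794485, plus strand, GRCm38), had 267.9, 287.6, 289.1 and 280.2 CPM with antibody. The libraries without antibody had 256.2, 238.7, 258.2 and 249.4 CPM, all below the lowest antibody library. Its log2 fold change was 0.17 ± 0.05 SE (95% interval 0.07 to 0.26), or 1.12-fold. The call was lost without antibody replicate 2 (0.15), 3 (0.15) or 4 (0.17), or without replicate 2 of the other arm (0.14), while the value stayed between 0.14 and 0.19 under every alternative tried. Gclm, the modifier chain, had 158.4, 165.9, 168.1 and 163.1 CPM with antibody. Without antibody it had 139.3, 158.7, 167.1 and 170.3 CPM, a wider spread that held all but the lowest library within or above the antibody range. Its log2 fold change was 0.04 ± 0.06 SE, and the 95% interval allows a fold from 0.95 to 1.12. Of 6291 exonic bases of Gclm, 244 are shared with the pseudogene Gm6061 on the same strand (5.47 CPM with antibody and 5.72 without). A further gene, Gm17494 on the other strand, shares 296 and stood at 0 CPM in both arms.

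The ratio of Gclc to Gclm in RPKM kept to 2.74 to 2.81 over the 4 antibody libraries. Without antibody it was 2.43, 2.50 and 2.37 in replicates 2, 3 and 4, and 2.98 in replicate 1, where Gclm was at its lowest. Gss, which adds glycine, had 115.9, 113.0, 111.7 and 110.1 CPM with antibody. Without antibody it had 103.5, 112.7, 111.7 and 98.1 CPM, so that replicates 2 and 3 lay within the range of the antibody libraries and replicates 1 and 4 below it. The log2 fold change was 0.08 ± 0.05 SE, and 0.005 without replicates 1 and 4. Exons of Gss share 395 bases with those of Acss2 on the other strand and overlap antisense transcripts, out of 5915 exonic bases, and the strand setting of the counting is not given in the sources used here. Acss2 itself stood at 34.4 CPM with antibody and 34.7 without.

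Gsr, the reductase (ENSMUSG00000031584, chromosome 8, 33652523 to 33698163, plus strand, GRCm38), had 326.9, 320.7, 332.8 and 316.0 CPM with antibody. Its libraries without antibody had 263.2, 301.8, 305.5 and 299.0 CPM. The arms did not overlap, but replicate 1 without antibody lay far below the other 7 libraries. Its log2 fold change of 0.15 ± 0.05 SE (95% interval 0.05 to 0.25) was not called, and it was 0.10 without that replicate and 0.09 without both replicates 1 and 4. With no filter on low counts it was called, at 0.15.

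The oxoproline steps showed small negative values that were not called. Oplah, which turns oxoproline into glutamate (chromosome 15, 76296597 to 76328015, minus strand), had 37.6, 33.4, 31.8 and 32.5 CPM with antibody. In the other arm it had 38.2, 41.2, 37.4 and 39.0 CPM, and only antibody replicate 1 reached into that range. The log2 fold change was -0.20 ± 0.06 SE (95% interval -0.33 to -0.07). It was called as lower without antibody replicate 1 (-0.26), without replicate 1 of the other arm (-0.21) and without both replicates 1 and 4 (-0.22). Exons of Oplah share 385 bases with Exosc4 and 296 with Smpd5 on the other strand. Exosc4 stood at 28.07 CPM with antibody and 29.85 without, and Smpd5 at 4.77 and 4.01 CPM. Ggct, at 91 to 144 counts per library the scarcest of the set per length, had 9.01, 9.14, 7.70 and 9.20 CPM with antibody. The libraries without antibody had 9.20, 9.31, 8.52 and 9.65 CPM. Antibody replicate 3 was the lowest of all 8, and the other 3 antibody libraries lay within the range of the other arm. Its log2 fold change was -0.07 ± 0.10 SE, with a 95% interval that allows a fold from 0.82 to 1.11.

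Libraries of an arm varied by different amounts from gene to gene. Cth had a coefficient of variation of 13.4% with antibody and 13.5% without, and Chac1 9.53% and 9.75%. Gclm (2.56% and 8.77%), Gss (2.18% and 6.51%) and Gsr (2.26% and 6.70%) were tighter with antibody than without, as were Chac2 (6.05% and 11.9%) and Cbs (12.0% and 17.8%). Oplah (7.62% and 4.19%) and Ggct (8.13% and 5.16%) varied more with antibody. Over all genes edgeR's biological coefficient of variation was smaller among antibody libraries, 3.24% against 7.01%. The arm without antibody includes replicate 1, which stood apart from its arm. That library had 263.2 CPM of Gsr, where the others of its arm had 299.0 to 305.5. For Gclm it had 139.3 CPM, where the others had 158.7 to 170.3. How much of the wider spread without antibody rests on this library was not tested. Within the antibody arm, replicate 1 was the highest and replicate 2 the lowest for both Cth and Chac1. Without antibody replicate 4 was the highest for both, while the lowest was replicate 2 for Cth and replicate 1 for Chac1.

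The genes whose profile over the 8 libraries was nearest to that of Cth were Aldh1l2, Trib3, Pycr1, Lhfpl2 and Adm2. Likeness was measured as the root mean square difference of log2 CPM after centring each gene on its mean. The difference between the arms makes up most of the profiles of Cth and Chac1. Genes with a like fold change therefore come out near and genes without one far, so the ranking is no separate result. Aldh1l2, a mitochondrial folate enzyme, differed from Cth by 0.11, Trib3, a pseudokinase induced by ATF4, by 0.14, and Pycr1, a proline synthesis enzyme, by 0.15. Lhfpl2 differed by 0.15 and Adm2, which encodes a peptide of the calcitonin family, by 0.16. Nearest to Chac1 were Gpt2, an alanine aminotransferase (0.07), Pycr1 (0.08), Trib3 (0.08), Psph, the phosphatase of serine synthesis (0.11), and Flywch2 (0.12). Trib3 and Pycr1 were in both sets. Of the members, Chac1 lay 0.18 from Cth. Among 11593 other genes compared, 6 lay closer to Cth and 31 closer to Chac1 than that. Cbs lay 0.57 from Cth and Chac2 0.52 from Chac1, with 7849 and 10489 of those genes closer.

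**Figure D4:**
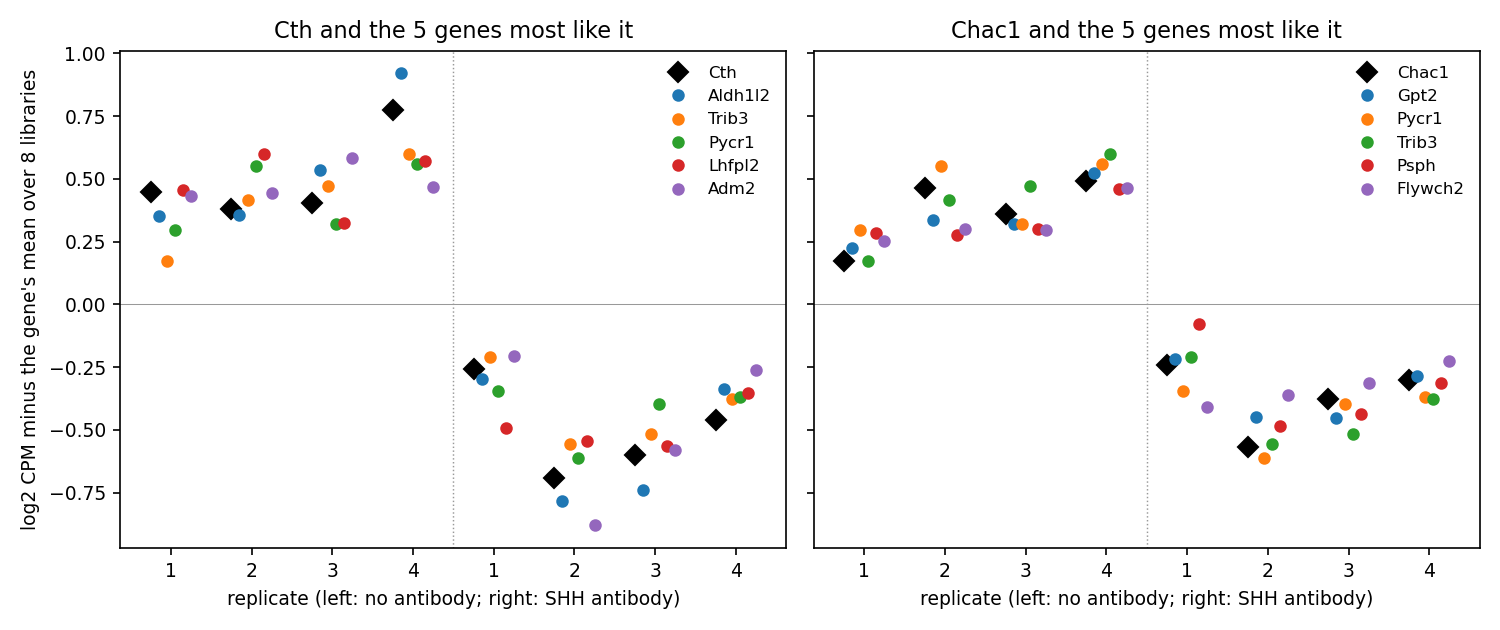
Log2 CPM of Cth (left) and Chac1 (right, both as black diamonds) and of the 5 genes nearest to each, after subtracting each gene's mean over the 8 libraries, with the 4 replicates without antibody to the left of the dotted line and the 4 with antibody to the right. All genes shown lie above 0 in every library without antibody and below 0 in every antibody library, a pattern that the choice by likeness favours.

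Other genes around this route were taken in 8 lists of 112 genes, of which 90 were tested, 6 were called higher and 15 lower, beside 4.53% and 3.87% of all genes. Without both replicates 1 and 4 of the arm without antibody, 9 were called higher and 21 lower, beside 1121 and 1142 of all genes. Cystine uptake and glutathione transport had 3 of 7 genes called lower and none higher, with a median log2 fold change of -0.23. Slc3a2, the heavy chain that carries the cystine transporter to the membrane, had 207.6, 188.2, 188.9 and 204.2 CPM with antibody and 259.4, 248.6, 243.5 and 258.4 without. All antibody libraries lay below all others (log2 fold change -0.36 ± 0.05 SE, edgeR adjusted p = 3.19e-05). The glutathione conjugate exporter gene Abcc1 (-0.24 ± 0.05 SE, adjusted p = 0.0019) and Slc25a39, a mitochondrial glutathione carrier (-0.19 ± 0.05 SE, adjusted p = 0.0338), fell too. Slc25a39 was not called in 5 of the 8 fits that leave out a single library, nor on log2(RPKM + 1) and log2(RPKM + 0.1). Those 5 were the fits without antibody replicate 1 (-0.19), 2 (-0.18) or 4 (-0.17) and without replicate 2 (-0.17) or 3 (-0.14) of the other arm.

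Slc7a11, the cystine-importing light chain itself, did not pass the test (log2 fold change -0.23 ± 0.08 SE, adjusted p = 0.059). Its libraries had 200.2, 181.9, 191.1 and 204.2 CPM with antibody and 206.6, 200.4, 224.4 and 279.8 without. Replicate 4 without antibody was the highest by far, as it was for Cth. Slc7a11 was called as lower without replicate 1 (-0.28, adjusted p = 0.00556) or replicate 2 (-0.29, adjusted p = 0.0201) of that arm, with the replicate number as a block (adjusted p = 0.0216) and with no filter (adjusted p = 0.000587). Without replicate 4 its value was -0.12 and not called (adjusted p = 0.198), and without both replicates 1 and 4 it was -0.13 and called (adjusted p = 0.0456).

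Genes of the ATF4 response were lower in 9 of 12 and higher in none, with a median of -0.33. Low levels of such genes were known in these libraries when the list was drawn up, so it is no independent evidence. Trib3 had 29.6 ± 3.28 CPM with antibody and 52.8 ± 6.37 CPM without it (log2 fold change -0.84 ± 0.08 SE, adjusted p = 9.93e-07). Atf5 (-0.59 ± 0.08 SE, adjusted p = 2.64e-05), Ddit3, which encodes CHOP (-0.57 ± 0.08 SE, adjusted p = 5.03e-05), and the asparagine synthetase gene Asns (-0.51 ± 0.07 SE, adjusted p = 2.53e-05) fell as well. The value of Cth was lower than that of all 12, and only Trib3 among them had a lower value than Chac1. Members and list were both chosen with this contrast known, so nothing is read from this order.

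Of 12 genes of the methionine cycle and salvage 1 was called, Ahcyl2, a relative of S-adenosylhomocysteine hydrolase (0.27 ± 0.05 SE, adjusted p = 0.00168), and the list median was -0.02, where 8.4% of all genes were called. Adi1 (-0.11), Ahcyl1 (-0.08) and Mtrr (-0.09) did not pass. Of 8 genes of cysteine catabolism and sulfide oxidation 1 was called, sulfite oxidase (Suox), from 80.5 ± 2.53 to 97.6 ± 5.59 CPM (0.28 ± 0.05 SE, adjusted p = 0.00116), and the list median was 0.05. The thiol dioxygenase gene Ado (0.11), Csad, which leads to taurine (0.08), and the sulfurtransferase gene Mpst (-0.06) did not pass.

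None of 6 genes of extracellular glutathione breakdown was called (median -0.05, smallest adjusted p = 0.283, for Ggt7), where 8.4% of all genes were called. None of 10 glutathione peroxidases and glutaredoxins was called either (median -0.08). DESeq2 and limma voom called 0 genes in both lists too, and 0 genes of the first and 0 of the second had an unadjusted p under 0.05. Without both replicates 1 and 4 of the arm without antibody, 1 gene of each was called lower. In that fit 1121 of all genes were called higher and 1142 lower. Gpx4, which reduces lipid peroxides, was at -0.12 ± 0.07 SE (adjusted p = 0.321). Of 20 glutathione transferases, which join glutathione to other compounds, 4 were called higher and 1 lower (median 0.11). Of all genes 4.53% were called higher and 3.87% lower. Gsta4 went from 240.3 ± 7.81 to 339.5 ± 25.1 CPM (0.50 ± 0.05 SE, adjusted p = 1.87e-06), and Gsto1 (0.24 ± 0.05 SE, adjusted p = 0.00152) rose as well. Gsta1 (1.01 ± 0.13 SE, adjusted p = 1.33e-05) and Gstm5 (-0.36 ± 0.06 SE, adjusted p = 0.000164) belong to families with near-identical members, so their values are uncertain. The 15 genes of NRF2 and NADPH supply had a median of 0.06, with 10 values above 0 and 5 below. Of them 2 were called, both lower, where 3.87% of all genes were called lower. These were the heme oxygenase gene Hmox1 (-0.37 ± 0.06 SE, adjusted p = 0.000147) and Osgin1 (-0.30 ± 0.08 SE, adjusted p = 0.0233). Without both replicates 1 and 4 of the arm without antibody, 2 of the 15 were called higher and 4 lower, beside 1121 and 1142 of all genes. Osgin1 was not called without antibody replicate 2 or 3, without replicate 2 or 3 of the other arm, or on either log2 RPKM scale. Nfe2l2, the gene of NRF2 itself, was at 0.13 ± 0.05 SE (adjusted p = 0.11) and Idh1, which makes NADPH, at 0.11 ± 0.04 SE (adjusted p = 0.123). Neither was called, though their antibody libraries lay above all others.

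**Figure D5:**
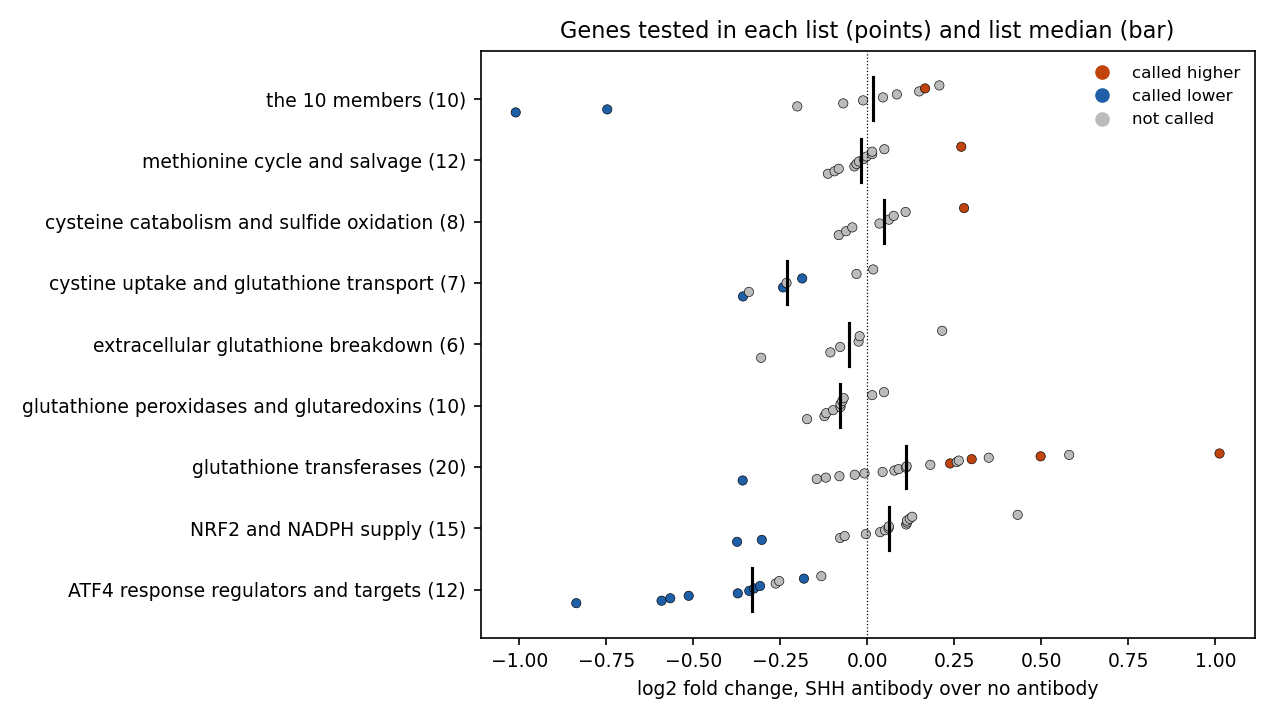
Log2 fold change, antibody over no antibody, of the 10 members and of the genes tested in each of 8 lists (number in brackets), coloured by call, with the list median as a bar. Of the 12 genes of the ATF4 list 9 are called lower, and the members Cth (-1.01) and Chac1 (-0.75) lie below the other 8 members, Cth also below every gene of that list. Members and this list were chosen with the contrast known.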

How the data were processed

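PolyA RNA of 8 libraries was measured. The submitters' processing notes name CASAVA 1.8.2, TopHat2 2.0.9 and the build GRCm38. No label names the counting tool, annotation release or strand setting. Deposited by the authors were raw counts per gene and RPKM values. Over 12005 genes with at least 20 counts in every library, the deposited RPKM equalled count over a single gene length and the library's total.

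Arms were taken from the treatment label (in the titles "minus" marks antibody). Genes kept by filterByExpr went into the quasi-likelihood F test of edgeR 4.0.16 (R 4.3.3), scaled by TMM and modelled on the arm alone. P-values were adjusted by Benjamini and Hochberg over all genes tested and called under 0.05. Standard errors come from the F statistic. CPM values were scaled with TMM factors. Overlapping exons came from GENCODE M21.

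The members and lists were chosen with earlier results of these data known. Named genes are the members, up to 4 genes of smallest p per list, and the 5 nearest to Cth and to Chac1, without predicted genes and pseudogenes. Alternatives tried were upper quartile and RLE scaling, no low-count filter, a filter at 1 CPM in 4 libraries, a replicate block, DESeq2 1.42.0, limma 3.58.1 voom, log2(RPKM + 1), log2(RPKM + 0.1), leaving out each library, and, chosen after seeing the data, leaving out replicates 1 and 4 without antibody together. One item of the labels is not reported here.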

Additional observations from a re-analysis of the deposited data

Results flagged for a closer look

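In 20 groups of 4 libraries (10 genes in each arm), 3 held a library whose gap to the nearest other took up nearly the whole range of its group (Dixon's criterion at 95%, which chance meets in about 1 of 20 groups). Cth without antibody had replicate 4 at 155.8 CPM, above the other 3 at 118.5 to 124.2 CPM. Gsr without antibody had replicate 1 at 263.2 CPM, below 299.0 to 305.5 CPM. Ggct with antibody had replicate 3 at 7.70 CPM, below 9.01 to 9.20 CPM.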

How the results depend on the processing

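Cth and Chac1 kept direction and call under all 18 alternatives, with log2 fold changes from -1.10 to -0.89 and from -0.81 to -0.69. The count of members called higher (1) became 3 with no filter on low counts and 2 without replicates 1 and 4 of the arm without antibody together. Leaving out single libraries gave 0 to 2 higher and 2 to 3 lower. The sign of Cbs turned with limma voom (0.004), without antibody replicate 4 (0.068) and without replicate 2 (0.031) or 3 (0.087) of the other arm, in a range of -0.09 to 0.087 over single libraries left out, and its value was -0.232 without both replicates 1 and 4. That of Gclm turned without replicate 1 of the arm without antibody (range -0.016 to 0.08), and that of Cndp2 without replicate 3 (range -0.065 to 0.003). Over all genes, 617 higher and 527 lower became 386 and 289 on log2(RPKM + 1), 380 and 290 on log2(RPKM + 0.1), and 1121 and 1142 without both replicates 1 and 4. Leaving out single libraries gave 369 to 756 higher and 305 to 729 lower, and for the 90 list genes tested 6 higher and 13 to 16 lower. The cause of these shifts was not tested. With the replicate block 547 and 458 genes were called, 1 member higher and 2 lower. Same-numbered libraries of the arms deviated from their arm means with correlations of -0.025, -0.029, 0.007 and 0.004, which shows no large shared deviation. The labels do not say whether same-numbered libraries shared a culture or day, and these correlations cannot decide it. Other scalings put the median of all genes at -0.006 (RLE) and -0.01 (upper quartile), from -0.004. Cbs and Ggct, at 91 to 158 counts per library, have the widest intervals, and small differences in them were not detectable at this depth.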
